A study of Homo sapiens with 6 samples.

Results

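The genes described here are the receptors and signal-transducing proteins of the interferon response: *IFNAR1*, *IFNGR1*, *IFNGR2*, *JAK1*, *JAK2*, *STAT2*, *IRF9*, *IRF1* and *SOCS3*. They were chosen by name, with earlier results of these data known, and all 9 were found among the 21462 genes of the count table. Control (A431CT) and Dsg2 knockout (Dsg2KO) cells of the A431 line were compared. The mRNA of the interferon-gamma receptor chain *IFNGR2*, the kinase *JAK2*, the transcription factor subunit *IRF9* and the feedback inhibitor *SOCS3* was higher in Dsg2KO cells, and no gene of the 9 was called lower. The largest difference was that of *IRF9*, with a log2 fold change of 2.15. It came from few reads, and how they were assigned to *IRF9* is not stated. Genes around *IFNGR2* on chromosome 21 were mostly higher as well. *JAK1* and *IFNGR1*, the partners of *JAK2* and *IFNGR2*, had log2 fold changes of -0.12 and -0.11.

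Interferons signal through pairs of receptor chains on the cell surface. IFNAR1 works with IFNAR2 for type I interferons and IFNGR1 with IFNGR2 for interferon-gamma, and each chain carries a Janus kinase (JAK1, JAK2 or TYK2) that phosphorylates STAT proteins once the ligand has bound. STAT2 then joins IRF9 in the complex ISGF3, which acts on the response elements of type I interferon target genes, while dimers of STAT proteins act on other genes, among them *IRF1*. Keratinocytes are known to respond to both kinds of interferon, and SOCS proteins block the kinases as a feedback.

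A431 is a human keratinocyte line from an epidermoid carcinoma. Both lines came from another laboratory, the knockout was made with CRISPR/Cas9, and it is not stated in the sources used here whether the Dsg2KO line is 1 clone. Polyadenylated RNA was sequenced from 3 biological replicates per line grown in serum-containing medium, with no interferon treatment named in the labels. Differences between the lines that do not come from the loss of Dsg2 cannot be told apart from it, and p-values measure the spread between these replicates.

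The libraries held between 12845719 and 16255692 counts, so that a floor of 3 counts corresponds to 0.183 to 0.236 CPM (counts scaled to library size with TMM factors), for counting error only. *DSG2*, the targeted gene, was at 319 to 330 CPM in A431CT cells and 49.7 to 55.1 CPM in Dsg2KO cells. The keratinocyte genes *KRT5*, *TP63*, *CDH1*, *DSP* and *EGFR* were abundant in every library, while *KRT14* and *PKP1* had at most 2 counts. Of the 10 keratinocyte markers *KRT6A* was called lower, at 7.75 to 9.06 CPM against 3.55 to 5.07 CPM (log2 fold change -1.03). Of 5 endothelial markers, *CDH5* and *PECAM1* were called higher in Dsg2KO cells and *KDR* and *TEK* had at most 3 counts. DESeq2, run as an alternative, called 1 of the 5. The summed level of the 5 was 8.52 to 11.5 CPM in A431CT cells and 15.1 to 15.7 CPM in Dsg2KO cells, and the part of this in the results below was not tested. Of 8 leukocyte markers *CD68* was called lower, at 236 to 240 CPM against 148 to 161 CPM, and *PTPRC* had at most 8 counts. *LYZ* was at 1.89 to 2.25 CPM against 2.48 to 4.08 CPM, higher in all 3 Dsg2KO libraries and not called. The summed level of the 8, nearly all of it *CD68*, was 241 to 245 CPM in A431CT cells and 154 to 167 CPM in Dsg2KO cells, and its part in the results was not tested either. In bulk RNA, more cells of a kind and more RNA per cell cannot be told apart. Genes were tested with the edgeR quasi-likelihood test and Benjamini-Hochberg adjustment over all 12857 genes that passed a filter on low counts. A gene was called when its adjusted p was below 0.05 and its log2 fold change was 0.5 or more in size.

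All 9 genes passed the filter. Of them 4 were called, all higher in Dsg2KO cells, beside 6.03% of all genes tested that were called in either direction and 2.99% that were called higher. With the adjusted p-value alone 7 of the 9 passed, all higher, beside 29.6% of all genes. The libraries of the 2 lines did not overlap for 8 of the 9 (7 higher and 1 lower), beside 42.6% of all genes. The median log2 fold change of the 9 genes was 0.49, while that of all genes tested was -0.0048. The choice of the 9 genes was not independent of these data, so their shares beside all genes are description only.

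**Figure D1:**
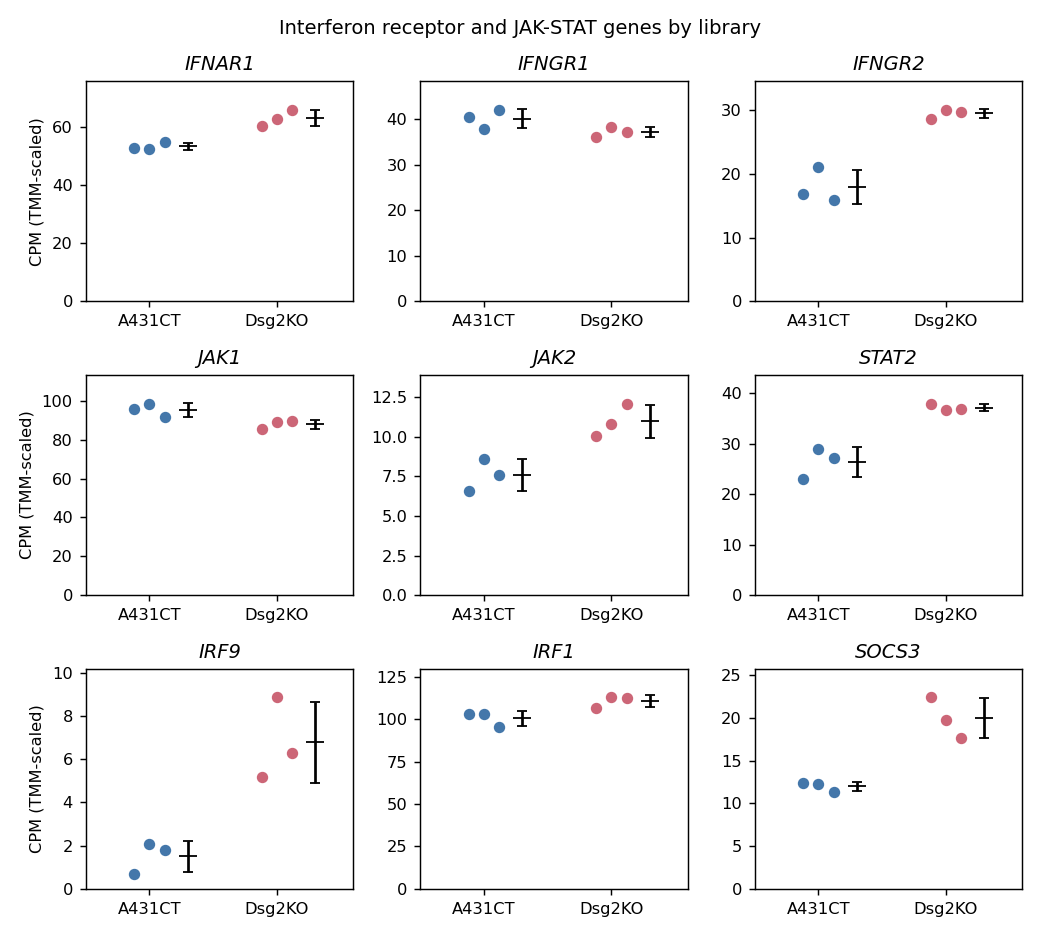
CPM of each gene in the 3 A431CT and 3 Dsg2KO libraries (points), with the mean and SD of each line beside them in black; every axis starts at 0. The Dsg2KO points lie above all A431CT points for 7 genes, below them for *JAK1*, and overlap them for *IFNGR1*.

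Among the receptor chains, the clearest difference was in *IFNGR2*, which encodes the signaling chain of the interferon-gamma receptor and lies at chr21:33403413-33479348 on the plus strand (GRCh38). Its mRNA stood at 16.8, 21.1 and 16.0 CPM in A431CT cells and at 28.7, 30.1 and 29.8 CPM in Dsg2KO cells. Every Dsg2KO library lay above every A431CT library, and the Dsg2KO replicates were close together. The mean went from 18.0 ± 2.74 to 29.5 ± 0.725 CPM (SD, n = 3), which is 0.72 on the log2 scale, with a standard error (SE) of 0.10 (adjusted p = 5.33e-05 in the edgeR quasi-likelihood test). *TMEM50B*, on the opposite strand, covers 11.7% of the exon bases of *IFNGR2*, and its own log2 fold change was 0.41 with an adjusted p of 0.0045 in the same edgeR fit. Whether the authors' counting used strand is not stated, so reads in the shared bases cannot be told apart.

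*IFNGR1*, the ligand-binding chain of the same receptor (chr6:137197483-137219449, minus strand), was measured at 40.6, 37.8 and 42.1 CPM in A431CT cells and at 36.1, 38.4 and 37.2 CPM in Dsg2KO cells. These ranges overlapped, and the log2 fold change of -0.11 had a 95% interval from -0.25 to 0.03. The number of *IFNGR2* counts per *IFNGR1* count was therefore compared within each library. It came to 0.415, 0.558 and 0.379 for the A431CT libraries, against 0.796, 0.783 and 0.801 for the Dsg2KO libraries. The ratio was higher in all 3 Dsg2KO libraries, by 0.84 on the log2 scale. The median log2 fold change of the 50 nearest tested genes was 0.37 around *IFNGR2* and -0.19 around *IFNGR1*. The part of these neighbor shifts in the ratio was not tested. An exact two-sided permutation test gave p = 0.1, the smallest value that 3 against 3 libraries allow (adjusted p = 0.17 over 5 such ratios).

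*IFNAR1* encodes a chain of the type I interferon receptor and lies beside *IFNGR2* (chr21:33324387-33359864, plus strand). Its levels were 52.9, 52.5 and 54.8 CPM in A431CT cells and 60.4, 62.9 and 66.0 CPM in Dsg2KO cells. The lines did not overlap, although the difference was small. The log2 fold change of 0.24 (95% interval 0.12 to 0.36) passed the adjusted p-value (0.0038, edgeR quasi-likelihood test) and not the fold change minimum. Its partner *IFNAR2* had no count in 5 libraries and 17 reads in Dsg2KO replicate 1, so it was not tested and no ratio could be formed. In GENCODE the readthrough gene *IFNAR2-IL10RB*, which has no row of its own in the count table, covers 49.1% of the exon bases of *IFNAR2* and 89.2% of those of *IL10RB*. *IL10RB*, a chain shared by the interferon-lambda and interleukin-10 receptors, was at 0.80 to 2.15 CPM. How reads were divided among these genes is not stated, and the values of *IFNAR2* and *IL10RB* are uncertain for that reason. *IFNLR1*, the other interferon-lambda receptor chain, was at 19.6 to 27.3 CPM with overlapping lines (named after its values were seen).

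The receptor genes on chromosome 21 lie among genes that were mostly higher in Dsg2KO cells. Of the 50 nearest tested genes around *IFNGR2*, 25 on each side, 41 had a positive log2 fold change and their median was 0.37. For *IFNAR1* the median of its 50 neighbors was 0.38, and 34 of them had a log2 fold change at or above that of *IFNAR1* itself. For *IFNGR2* only 3 of 50 did. After subtraction of the neighbor median, *IFNGR2* kept a log2 difference of 0.34, below the fold change minimum, and *IFNAR1* came to -0.14. The cause of this regional shift was not tested.

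**Figure D2:**
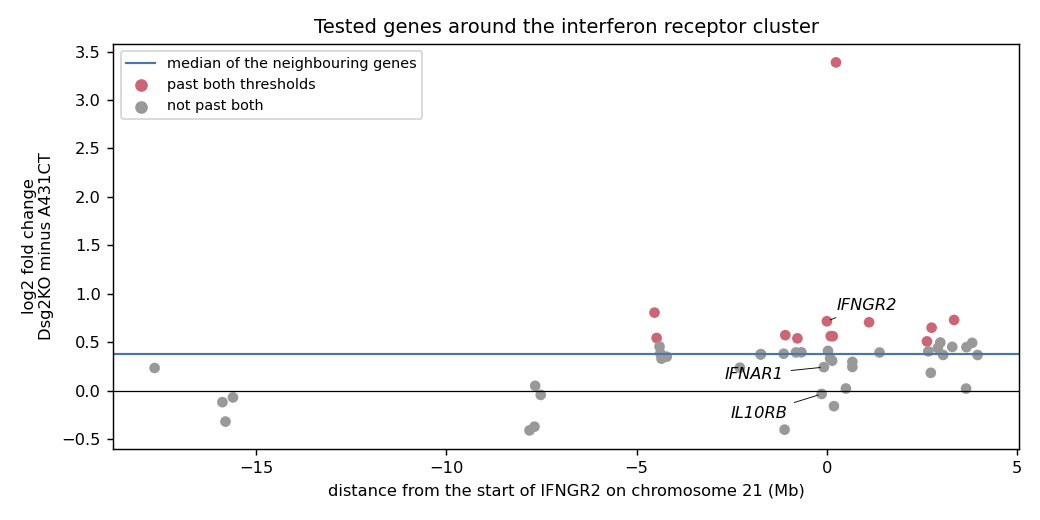
Log2 fold change (Dsg2KO minus A431CT) of *IFNGR2* and its 50 nearest tested genes on chromosome 21 against the distance from the start of *IFNGR2* in Mb; red points passed both thresholds and the blue line is the median of the 50 neighbors, 0.37. *IFNGR2* lies above the line, while *IFNAR1* and *IL10RB* lie below it. The point at 3.39 is *ITSN1*, named after its value was seen.

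Of the Janus kinases, *JAK2*, which is bound to IFNGR2 and to several cytokine and growth hormone receptors, was called (chr9:4984390-5129948, plus strand). Its mRNA was low, with 6.60, 8.62 and 7.59 CPM in A431CT cells and 10.1, 10.8 and 12.1 CPM in Dsg2KO cells. All 3 Dsg2KO libraries lay above the A431CT libraries. The log2 fold change was 0.53 (SE 0.14, 95% interval 0.23 to 0.83) with an adjusted p of 0.0103 in the edgeR quasi-likelihood test. This call was lost without A431CT replicate 1 (0.44, adjusted p = 0.0513) and without Dsg2KO replicate 3 (0.46, adjusted p = 0.0502). The median of 36 neighboring genes near this end of chromosome 9 was -0.0040. *INSL6* overlaps *JAK2* on the opposite strand without sharing bases of its canonical exons, and it was not called (log2 fold change -0.36, adjusted p = 0.43, edgeR quasi-likelihood test).

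*JAK1*, the kinase shared by type I, II and III interferon receptors (chr1:64833223-65067754, minus strand), was much more abundant. It was at 95.8, 98.7 and 91.7 CPM in A431CT cells and 85.4, 89.1 and 89.5 CPM in Dsg2KO cells. It was the only one of the 9 genes whose Dsg2KO libraries all lay below the A431CT libraries. The log2 fold change of -0.12 (95% interval -0.22 to -0.02) did not pass the adjusted p-value (0.0773, edgeR quasi-likelihood test), and the median of its 50 neighbors was -0.26. The *JAK2* to *JAK1* count ratio was 0.0689, 0.0874 and 0.0828 with A431CT cells against 0.118, 0.121 and 0.135 with Dsg2KO cells, higher in all 3 Dsg2KO libraries (exact two-sided permutation p = 0.1, the smallest possible, adjusted p = 0.17). *TYK2* had a log2 fold change of 0.06 and *JAK3* of 0.51, the latter at 1.01 to 3.09 CPM with overlapping lines (both named after their values were seen).

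The DNA-binding subunit of ISGF3, *IRF9* (chr14:24161234-24168043, plus strand), had the largest fold change of the 9 genes and few reads. A431CT libraries held 9, 28 and 23 counts of it and Dsg2KO libraries 77, 145 and 102 counts, or 0.71, 2.06 and 1.78 CPM against 5.16, 8.86 and 6.30 CPM. Replicates varied more than for the other genes, yet the lowest Dsg2KO library was above the highest A431CT library. The mean was 1.52 ± 0.716 CPM in A431CT cells and 6.78 ± 1.90 CPM in Dsg2KO cells (SD, n = 3). The log2 fold change was 2.15 (SE 0.31, 95% interval 1.49 to 2.81, adjusted p = 1.06e-04, edgeR quasi-likelihood test), and it lay between 1.81 and 2.44 when each library was left out in turn.

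The assignment of reads limits the *IRF9* value. A readthrough gene of GENCODE (ENSG00000259529, same strand) that has no row in the count table covers 93.1% of the exon bases of *IRF9* and 98.6% of those of the upstream gene *RNF31*, a subunit of the linear ubiquitin ligase. An antisense lncRNA covers 18.9% of the exon bases of *IRF9*. *RNF31* was at 13.0, 15.8 and 17.0 CPM in A431CT cells and at 6.84, 15.3 and 7.17 CPM in Dsg2KO cells. Its Dsg2KO replicates 1 and 3 lay below all A431CT libraries and replicate 2 among them, and its log2 fold change of -0.64 was not called (adjusted p = 0.0505, edgeR quasi-likelihood test). How reads of the shared exons were assigned is not stated, and its part in the *IRF9* difference was not tested.

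*STAT2*, the ISGF3 subunit that carries the transactivation domain (chr12:56341597-56360203, minus strand), fell just short of the fold change minimum. It was measured at 23.03, 28.96 and 27.12 CPM in A431CT cells and at 37.95, 36.62 and 36.94 CPM in Dsg2KO cells. The lines were well apart. The mean was 26.4 ± 3.03 CPM against 37.2 ± 0.696 CPM (SD, n = 3), and the log2 fold change was 0.49 (95% interval 0.32 to 0.66, adjusted p = 3.00e-04, edgeR quasi-likelihood test). Without A431CT replicate 2 it was 0.57, which would be called, as it also was without A431CT replicate 3 or Dsg2KO replicate 2 (both 0.51).

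*IRF9* and *STAT2* differed between the lines by unequal amounts. *IRF9* counts per *STAT2* count were 0.0307, 0.0712 and 0.0657 for the A431CT libraries and 0.136, 0.242 and 0.171 for those of Dsg2KO cells. The ratio was higher in every Dsg2KO library, by 1.76 on the log2 scale, and lay between 1.38 and 1.98 when each library was left out in turn. The exact two-sided permutation test gave 0.1, the smallest p possible here (adjusted p = 0.17). This ratio rests on the *IRF9* counts and carries their limit of read assignment.

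*IRF1*, a transcription factor induced by interferon-gamma and by NF-κB (chr5:132440440-132508719, minus strand), was the most abundant of the 9 per exon length. Its levels were 103, 103 and 95.2 CPM in A431CT cells and 107, 113 and 112 CPM in Dsg2KO cells. The lines did not overlap, but they differed by little more than the spread of the replicates. The log2 fold change was 0.14 (95% interval 0.04 to 0.24, adjusted p = 0.0360, edgeR quasi-likelihood test). In the same test the adjusted p rose above 0.05 without A431CT replicate 1 (0.0533) or 3 (0.137). It also did so without Dsg2KO replicate 2 (0.109) or 3 (0.0974). Without A431CT replicate 2 or Dsg2KO replicate 1 it stayed below 0.05 (0.0358 and 0.0400). With DESeq2 the adjusted p was 0.0606. An antisense transcript, *IRF1-AS1*, covers 16.3% of its exon bases. The ratio to *IRF2*, a repressor of the same family, overlapped between the lines (log2 difference 0.18, exact two-sided permutation p = 0.2, adjusted p = 0.25).

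The promoters of *IRF1* and *IRF9* were the only ones of the 9 genes with a match to the GAS motif, TTCNNNGAA, in the windows from RefSeq (GRCh38.p14, 300 bases around each annotated start). They are shown because STAT dimers are known to bind this motif, and capitals mark the GAS motif and, in *IRF1*, also a kappa-B motif. The *IRF1* stretch is chr5:132490804-132490913 on the minus strand, from 140 to 31 bases before the start, and the *IRF9* stretch is chr14:24161155-24161233 on the plus strand, from 110 to 32 bases before it.
IRF1: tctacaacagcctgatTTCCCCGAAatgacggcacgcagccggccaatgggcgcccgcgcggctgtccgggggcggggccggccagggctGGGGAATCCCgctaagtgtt
IRF9: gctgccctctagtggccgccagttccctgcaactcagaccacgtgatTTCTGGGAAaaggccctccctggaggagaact
The GAS motif lies from -124 to -116 in *IRF1* and from -63 to -55 in *IRF9*. It occurs on either strand in 7.66% of the 35116 windows of all genes. The core of the interferon-stimulated response element, GAAANNGAAA, occurs in 3.57% of windows and was not found in those of the 9 genes. The kappa-B motif GGGANNNNCC occurs in 25.6% of windows, and besides *IRF1* it was found in windows of *IFNGR1*, *IFNGR2*, *JAK2* and *SOCS3*. The 9 genes have between 1 and 4 windows each, so the shares of windows cannot be set against the number of genes with a match. These matches describe letters only.

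*SOCS3*, an inhibitor of JAK1 and JAK2 that is induced through STAT3 (chr17:78356778-78360077, minus strand), was called higher. It stood at 12.3, 12.3 and 11.4 CPM in A431CT cells and at 22.4, 19.8 and 17.7 CPM in Dsg2KO cells. The A431CT replicates were close together and the Dsg2KO replicates were spread more widely above them. The mean was 12.01 ± 0.539 CPM against 19.96 ± 2.37 CPM (SD, n = 3), a log2 difference of 0.73 (SE 0.11) that had an adjusted p of 1.33e-04 in the edgeR quasi-likelihood test. Its 50 neighbors had a median of -0.07. *SOCS1*, the main inhibitor of interferon-gamma signaling, was at 3.33 to 6.29 CPM in A431CT cells and 5.63 to 8.40 CPM in Dsg2KO cells. These ranges overlapped, the log2 fold change of 0.55 was not called (adjusted p = 0.0972, edgeR quasi-likelihood test), and the *SOCS3* to *SOCS1* ratio overlapped as well (exact two-sided permutation p = 0.5, adjusted p = 0.5).

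**Figure D3:**
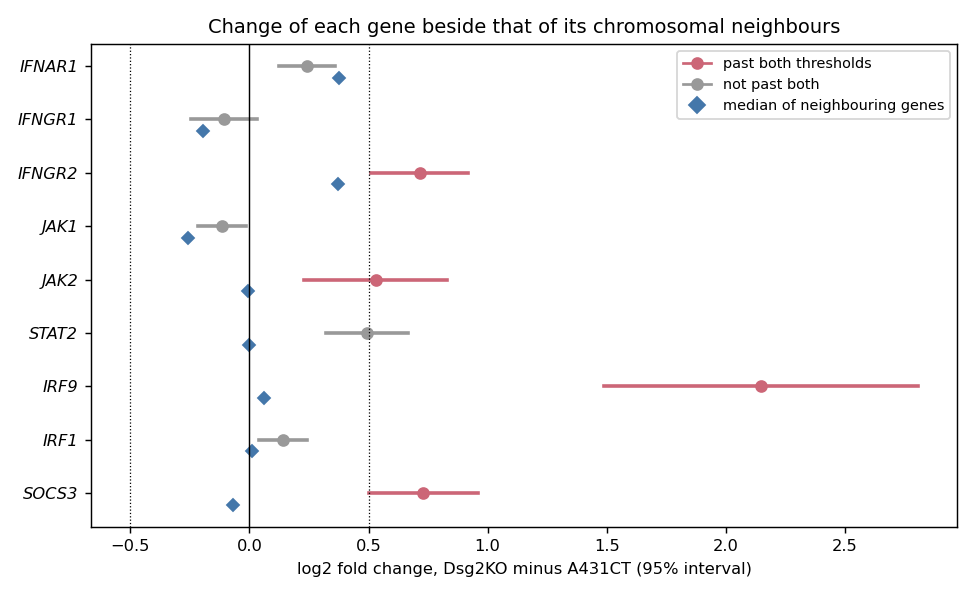
Log2 fold change (Dsg2KO minus A431CT) with its 95% interval for each gene, and below it (blue diamond) the median of its neighboring genes; dotted lines mark the fold change minimum of 0.5. The neighbor medians lie near 0.37 for *IFNAR1* and *IFNGR2*, at -0.26 for *JAK1* and at -0.19 for *IFNGR1*, and near 0 for the other 5.

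Per kilobase of exon in the canonical transcript, *IRF1* was the most abundant of the 9 in A431CT cells, at 28.3 CPM per kb. *IFNGR1* (19.4) and *JAK1* (18.7) followed and overlapped each other, then came *IFNGR2* (10.6), *IFNAR1* (8.79), *STAT2* (5.99) and *SOCS3* (4.39), each apart from the next. *JAK2* (1.08) and *IRF9* (0.933) were lowest and overlapped. In Dsg2KO cells the order changed in 2 places. *IFNGR2* (17.4) now overlapped *IFNGR1* (17.9) and *JAK1* (17.3), and *IRF9* (4.17) lay above *JAK2* (1.57).

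**Figure D4:**
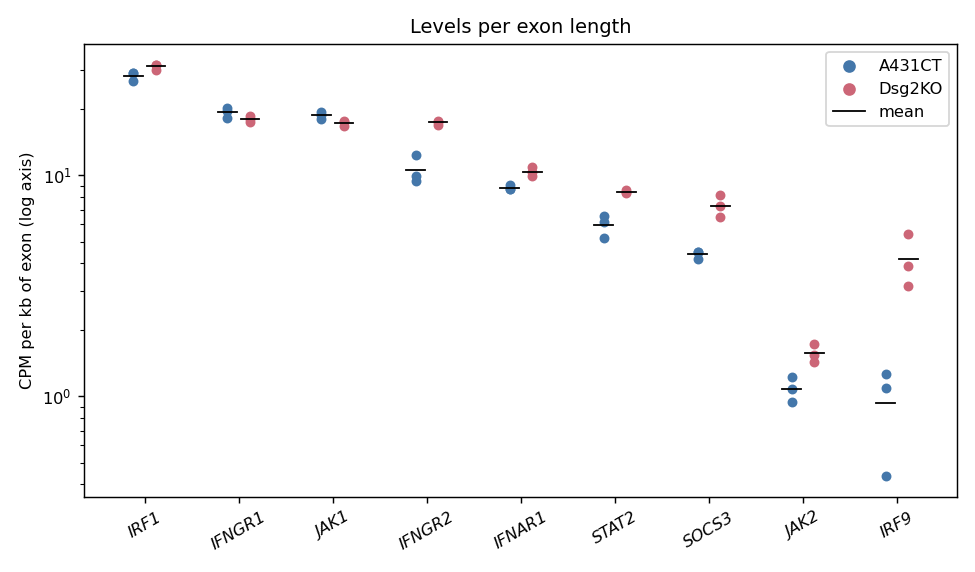
CPM per kb of canonical exon on a log axis for each library (points) with the mean of each line (black bar), in the order of the A431CT means. *IFNGR2* reaches the level of *IFNGR1* and *JAK1* in Dsg2KO cells, and *IRF9* and *JAK2* are the lowest in both lines.

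The ligands were almost absent. Of 21 interferon genes in the table none passed the filter, 19 had at most 3 counts in every library, and *IFNE* (1 to 7 counts) and *IFNL1* (0 to 4 counts) were the other two. *IFNG* had no count in any library, and *IFNB1* had none in A431CT cells, whereas the Dsg2KO libraries had 1, 2 and 1. At this depth lower levels of interferon mRNA were not detectable (*IFNG*, *IFNB1*, *IFNE* and *IFNL1* named after their values were seen).

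Beyond the 9 genes, a wider list of ligands, receptor chains, kinases, STATs, IRFs, SOCS proteins, other negative regulators and gp130 receptor chains held 60 further genes, of which 35 were tested and 0 were called by edgeR or by DESeq2, beside the 6.03% of all genes called by edgeR. An unadjusted p under 0.05 was reached by 9 of the 35, beside 39.5% of all genes. By the adjusted p-value alone 3 were higher and 4 lower, a smaller share than the 29.6% of all genes, and the median log2 fold change was -0.04. The 3 higher were *SOCS6* (0.35), the ISG15 protease *USP18* (0.26) and the LIF receptor chain *LIFR* (0.39). The 4 lower were the phosphatases *PTPN6* (-0.41) and *PTPN11* (-0.15), *STAT5B* (-0.15) and the interleukin-6 receptor chain *IL6R* (-0.22). These were named after their values were seen. *IRF7*, which amplifies type I interferon responses, stood near 1 CPM with a log2 fold change of -0.22 (named after its values were seen). The 9 genes and this list were chosen with earlier results of these data known, so their shares of calls are not an independent comparison.

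Known target genes were counted in 2 lists. Of 42 tested ISGF3 targets, 17 were called higher (40.5%) and 0 lower, beside 2.99% of all genes called higher. Their median log2 fold change was 0.34. By the adjusted p-value alone 29 passed (69.0%), all higher, beside 29.6% of all genes in either direction. *IFIT3*, an antiviral protein, went from 227 to 242 CPM in A431CT cells to 382 to 410 CPM in Dsg2KO cells (log2 fold change 0.76). *MX1*, an antiviral GTPase, went from 25.7 to 29.7 CPM to 61.1 to 67.2 CPM (1.22). Of 13 tested STAT3 targets 0 were called by edgeR or by DESeq2, which at this list size is near the 6.03% of all genes. An unadjusted p under 0.05 was reached by 3 of the 13 (23.1%), beside 39.5% of all genes. By the adjusted p-value alone 1 was higher and 1 lower (15.4%), beside 29.6% of all genes. The median was 0.05. Whether the lists differ from each other was not tested, and both were chosen with earlier results of these data known.

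**Figure D5:**
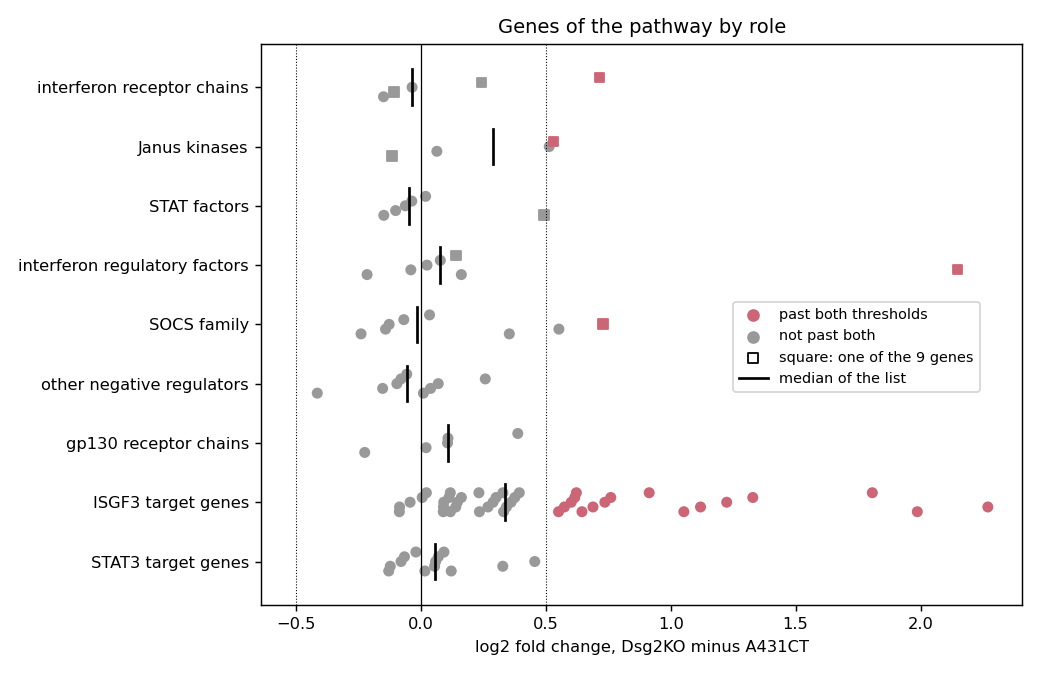
Log2 fold change (Dsg2KO minus A431CT) of tested genes of the pathway by role, with squares for the 9 genes, red for genes past both thresholds and a black bar for the median of each list. Among receptors, kinases, STATs, IRFs and inhibitors only squares are red, whereas 17 of 42 ISGF3 targets are red. The 9 genes and the lists were chosen with earlier results of these data known.

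The genes whose levels over the 6 libraries, relative to the A431CT mean, were most like those of the 4 called genes were named by the root mean square (RMS) difference of log2 CPM. For *SOCS3* these were *ZNF383* (0.063), *MARCKSL1* (0.074) and the ISGF3 target *IFIT3* (0.077). *IFNGR2* was nearest to *LZTS3* (0.065), *MYO5B* (0.080) and *PPM1J* (0.080). For *JAK2* they were *NDUFAF5* (0.052), *PPARG* (0.058) and *CEMIP2* (0.067). *IRF9* had no close match, and its nearest genes *SLC9A3R2*, *HOXB9* and *GNAZ* differed by 0.38, 0.41 and 0.42. *IRF9* had only 9 to 28 counts in A431CT libraries, and the part of counting error in these differences was not tested.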

How the data were processed

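RNA-seq of 3 A431CT and 3 Dsg2KO replicates was analysed. The authors trimmed and aligned paired-end reads to GRCh38 in CLC Genomics Workbench and deposited raw counts per gene symbol, without normalization. The annotation, the strand setting and the treatment of reads that fit several genes are not given in the sources used here. Groups and replicate numbers were taken from the labels. Counts were fitted with edgeR 4.0.16 in R 4.3.3 (TMM factors, filterByExpr with a minimum count of 10 and a minimum total of 15, quasi-likelihood F test, Benjamini-Hochberg adjustment over all 12857 genes tested). The fit was also run on counts simulated from its own trend of spread against expression, without further scatter between genes. Changes at the fold change minimum were not simulated, so this run does not bear on calls close to it. Ratios were compared by exact permutation tests. Genes were placed with GENCODE, which matched 19491 of 21462 symbols, and neighbors were the 25 nearest tested genes on each side.

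Replicates of a line differed beyond counting error (chi-square per degree of freedom 2.64 to 4.12). Residuals of libraries with the same replicate number correlated between -0.0027 and 0.054, so they were not treated as pairs. Some pathway results are not reported here. The 9 genes and all lists were chosen with earlier results of these data known. Genes named were DSG2, the 9 genes, called pathway genes and ratio partners, the 2 genes of smallest p per target list and direction, overlapping or adjacent genes, and the 3 genes most like each called gene, and others are marked as chosen after their values were seen. Of the adjacent and overlapping genes not described, none was called. The alternatives were no filter, at least 10 counts in every library, RLE factors, total counts, DESeq2 1.42.0, the likelihood ratio test, each replicate left out, a replicate block, fold change minima of 0 and 1, removal of the neighbor median, and other window sizes. The remaining steps used Python 3.11.15 with numpy 2.4.6, and figures were drawn with matplotlib 3.10.9.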

Additional observations from a re-analysis of the deposited data

How the results depend on the processing

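Under no low-count filter, at least 10 counts in every library, RLE factors, total counts, DESeq2, the likelihood ratio test and the replicate block, each of the 9 genes that could be fitted kept its direction. *IRF9* could not be fitted with at least 10 counts in every library. The fold change minimum moved the counts most. Without it 7 of the 9 genes, 14 pathway genes, 29 ISGF3 targets and 2 STAT3 targets were called, and with a minimum of 1 there were 1, 1 (both *IRF9*) and 7 in the first 3 lists. Without a filter on low counts 7 pathway genes were called, with *IFNAR2* (reads in 1 library only), *SOCS1* and *STAT2* added. With each replicate left out, 3 to 5 of the 9 genes, 3 to 5 pathway genes and 0 to 1 STAT3 targets (1 without A431CT replicate 2 or Dsg2KO replicate 2) were called. The *SOCS3* to *SOCS1* log2 ratio ranged from -0.0982 (without A431CT replicate 1) to 0.421 and also turned without Dsg2KO replicate 1 (-0.0385). With the neighbor median removed, *JAK1* (0.14), *IFNAR1* (-0.14) and *IFNGR1* (0.087) changed sign, which follows from the subtraction. With a replicate block the same 4 of the 9 genes were called, and 769 genes were called over the whole table in place of 775, with 747 shared. It changed no other call among the 9 genes. Counts of a few reads limit *IRF9*, *IFNAR2* and the ligands. *SOCS1* had 43 to 136 counts per library, and its lines overlapped.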
